A study of Mus musculus with 6 samples.

Results

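The genes of the apical junction and of cell polarity were examined in the cortex of mouse embryos that lack the Hippo kinases Lats1 and Lats2. The set was given as a list of 48 gene symbols: 9 claudins, 8 other tight junction genes, 12 adherens junction genes and 19 polarity genes. Each of the 48 had a row with 1 gene symbol, out of 22180 genes with such a row, and 46 of them passed a limit on mean level and were tested among 16724 genes. Cldn2 and Cldn6 were the exceptions, with means over the 6 arrays of 3.92 and 4.97 on the log2 scale, below the limit of 5.02. The samples were whole dissected cortices of embryos at E12.5, 1 embryo per array. The 3 DKO (double knock-out) embryos were Lats1F/F;Lats2F/F;Nestin-Cre, that is, with loxP-flanked alleles of both kinases and a Cre transgene driven by Nestin regulatory sequence. The other 3 embryos are labelled control, and the labels do not name the alleles they carry. Nestin-Cre acts in neural progenitors and the cells they give rise to, so vessels, meninges and blood cells in the dissected piece would keep the kinases.

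Neural progenitors of the embryonic cortex form a polarised epithelium whose apical side lines the ventricle. They are held to each other there by a belt of adherens junctions, in which cadherins bind catenins and nectins bind the actin-linked scaffold afadin. After the neural tube closes, these cells largely lack classical tight junctions, while endothelial cells and the choroid plexus form them from claudins, occludin and ZO scaffolds. Crumbs, Par and Scribble group proteins divide the membrane into apical and basolateral domains. Junction and polarity proteins are also known as upstream inputs of the Hippo pathway, which holds back the coactivators YAP and TAZ and their DNA-binding partners, the TEAD factors.

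The array medians ran from 5.94 to 5.97, and precision was limited by the small number of embryos. Lats1 stood at 8.71 ± 0.33 (SD, n = 3) in control and 7.79 ± 0.05 (SD, n = 3) in DKO cortex, with a limma adjusted p of 0.0189. Dropping single arrays ended the call in 4 of 6 cases: control 1 (adjusted p 0.0805), control 3 (0.0570), DKO 1 (0.0864) or DKO 3 (0.0814). Lats2 read 7.16, 6.835 and 7.11 in control and 7.36, 7.18 and 7.27 in DKO arrays, so it was not lower but higher in every DKO array. The difference was 0.24 ± 0.10 (SE, limma adjusted p 0.285). The position of the Lats2 probes relative to the deleted exons is not stated in the labels. Xist and 3 Y-linked transcripts showed 2 female and 1 male control embryos against 1 female and 2 male DKO embryos. Correlations between arrays over all rows were 0.991 to 0.994 within a sex and 0.978 to 0.985 between sexes. Over named rows without genes of X and Y they were 0.993 to 0.996 and 0.993 to 0.997. The cortical transcription factor gene Emx1 was at 7.69 ± 0.05 (SD, n = 3) in control and 7.39 ± 0.11 (SD, n = 3) in DKO cortex, and the progenitor factor gene Pax6 at 9.70 ± 0.12 and 9.63 ± 0.05 (SD, n = 3 each).

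Of the 46 tested genes, 4 rose in DKO cortex and 0 fell (Benjamini-Hochberg adjusted p under 0.05 in a limma fit over all 16724 genes). Nectin2 and Nectin3, which encode adhesion receptors of the adherens junction, rose 1.85-fold and 1.50-fold. Crb2, the Crumbs transmembrane protein of apical membranes, rose 1.44-fold, and Tjp1, which encodes the scaffold ZO-1, rose 1.39-fold. The 4 increases were 8.70% of the tested members, where 1.36% of all tested genes rose and 0.359% fell. At an unadjusted p under 0.05, 11 members were higher (23.9%) and 6 were lower (13.0%), against 6.39% and 9.18% of all tested genes. All 3 DKO values lay above all 3 control values for 13 members (28.3%, against 8.22% of all tested genes) and below them for 7 (15.2%, against 13.4%). The median log2 difference of the 46 was 0.01 and that of all tested genes -0.03, and 34 of the 46 (73.9%) differed by less than 0.2, against 86.0% of all tested genes.

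**Figure D1:**
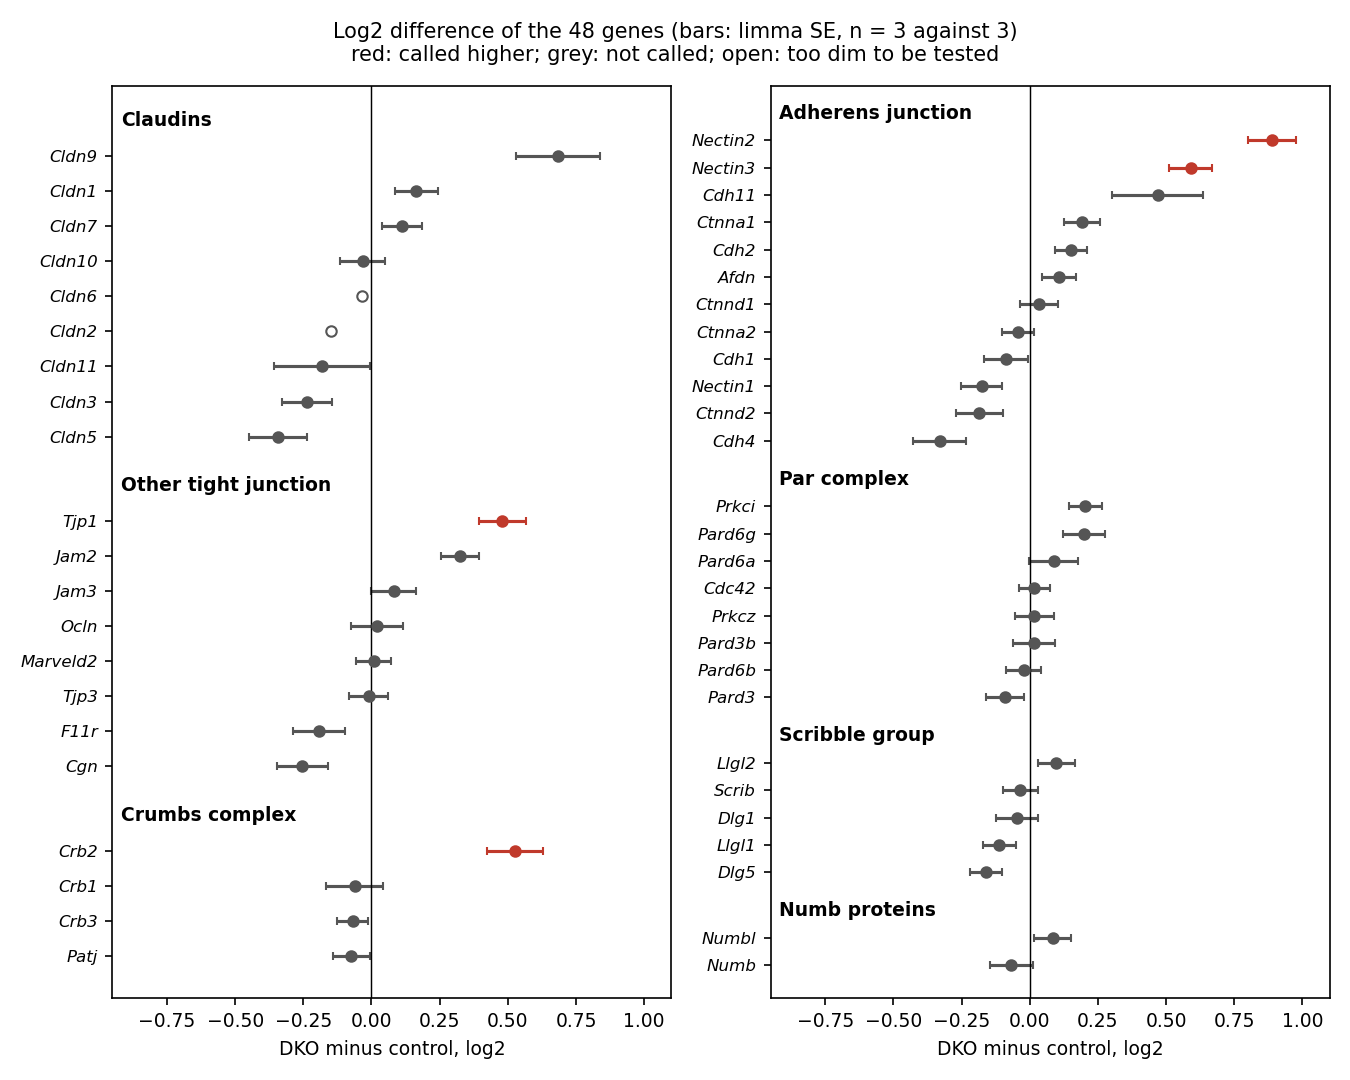
DKO minus control difference of each of the 48 genes on the log2 scale (horizontal axis), by junction or polarity group, as points with limma SE bars (3 embryos against 3). The 4 red points are Nectin2 at 0.89, Nectin3 at 0.59, Crb2 at 0.53 and Tjp1 at 0.48, and the 2 open points are Cldn2 and Cldn6, which lay below the limit on mean level.

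The nectins were the members with the largest called increases. Nectin2 read 7.91, 7.92 and 7.93 in the control arrays and 8.86, 8.62 and 8.95 in the DKO arrays. The control values lay almost on each other, and the lowest DKO value, that of DKO 2, was still far above them. The increase was 0.89 ± 0.09 (SE) on the log2 scale with a limma adjusted p of 0.00175, rank 76 among the increases of all tested genes. Nectin3 read 8.95, 8.94 and 8.98 in control and 9.69, 9.42 and 9.53 in DKO arrays, an increase of 0.59 ± 0.08 (SE, adjusted p 0.00781). Again the groups were apart and DKO 2 was the lowest of its group. Both genes still passed when any single array was dropped (highest adjusted p 0.0144 for Nectin2 and 0.0421 for Nectin3) and in the 10 other settings. With 3 embryos against 3, no single gene can go below p = 0.1 in a two-sided exact permutation test. Nectin1, the third family member in the list, had a difference of -0.18 ± 0.07 (SE, adjusted p 0.302), with control arrays at 8.50 to 8.68 and DKO arrays at 8.34 to 8.50. Afdn, which encodes afadin, the scaffold that links nectins to actin, differed by 0.11 ± 0.06 (SE, adjusted p 0.457).

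**Figure D2:**
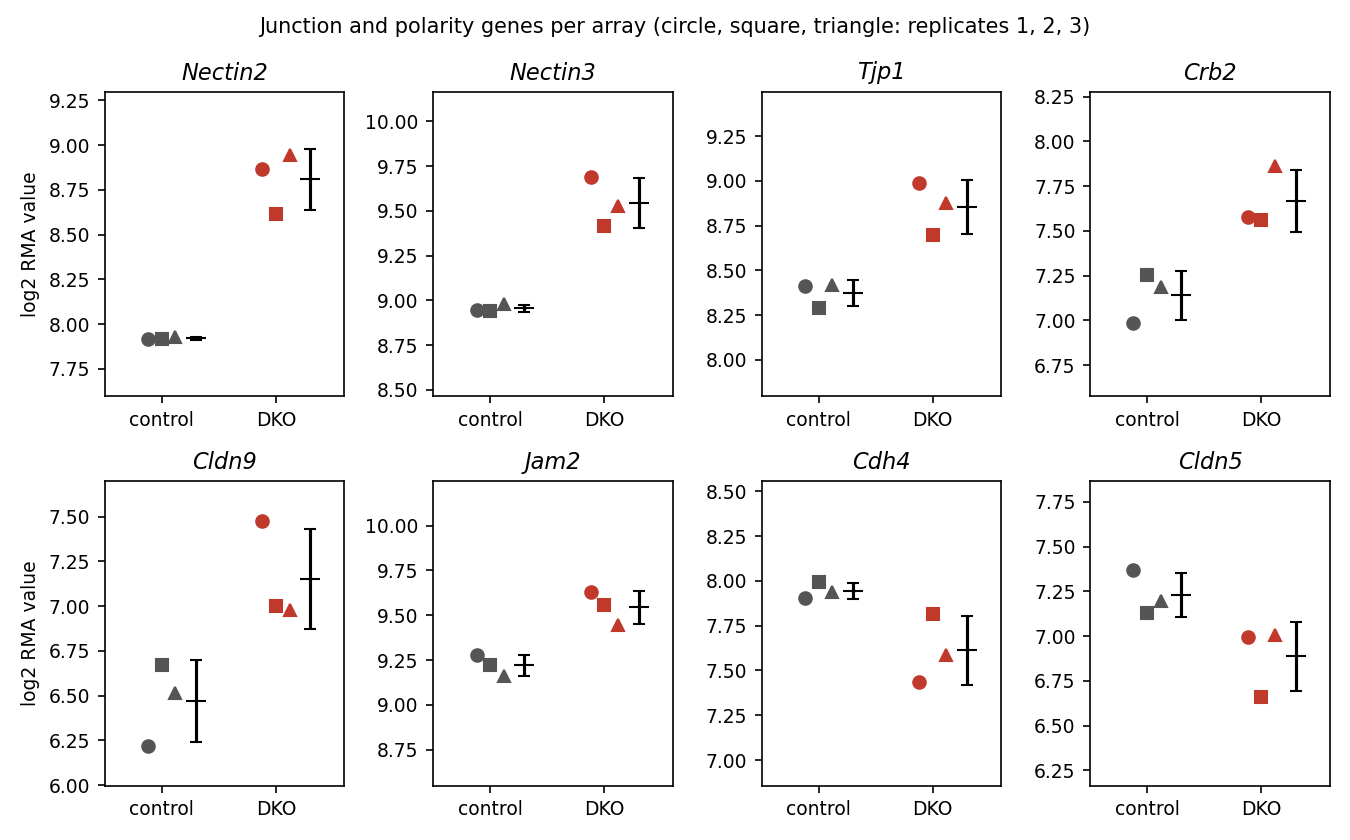
Log2 values of 8 genes in each array (vertical axis, the same span of 1.7 in every panel), control in grey and DKO in red, with the replicate number as the symbol and the mean ± SD in black. The groups are apart in all 8 panels, and those of Nectin2 (7.91 to 7.93 against 8.62 to 8.95) are the farthest apart; Cldn9, Jam2, Cdh4 and Cldn5 did not pass the test.

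The start regions of the 4 genes that rose are shown because all 4 moved in 1 direction. RefSeq promoter windows (GRCm38.p6, 250 bases before to 50 after the start) were at hand for 36 of the 48 members, among them these 4. The 120 bases before each start follow, 5′ to 3′ on the gene's strand, with GC boxes (GGGCGG or CCGCCC, the letters bound by Sp1-type factors) in capitals. Nectin2 lies at chr7:19749574-19749693 on the minus strand, Nectin3 at chr16:46496968-46497087 on the minus strand, Crb2 at chr2:37776129-37776248 on the plus strand and Tjp1 at chr7:65371245-65371364 on the minus strand.
Nectin2: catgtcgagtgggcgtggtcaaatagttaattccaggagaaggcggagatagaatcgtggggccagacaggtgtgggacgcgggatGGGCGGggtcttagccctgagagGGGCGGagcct
Nectin3: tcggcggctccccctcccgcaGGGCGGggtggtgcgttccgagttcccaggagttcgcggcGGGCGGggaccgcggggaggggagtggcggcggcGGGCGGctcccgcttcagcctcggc
Crb2: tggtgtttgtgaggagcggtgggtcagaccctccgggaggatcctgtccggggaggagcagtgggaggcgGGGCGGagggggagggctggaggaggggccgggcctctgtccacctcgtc
Tjp1: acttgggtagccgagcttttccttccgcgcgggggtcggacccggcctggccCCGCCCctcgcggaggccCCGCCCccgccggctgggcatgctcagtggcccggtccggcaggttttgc

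Each of these windows was rich in G and C, from 62.7% in Nectin2 to 73.7% in Nectin3, and held at least 1 GC box. In their full windows Nectin3 had 40 CpG dinucleotides, Tjp1 31, Nectin2 20 and Crb2 15, beside a median of 19 in the tested genes. GC boxes were found in the windows of 30 of the 34 tested members with a window (88.2%), against 60.1% of the 12993 tested genes with a window. The core TEAD letters GGAATG or CATTCC were found in 3 of the 34 (8.82%), Cldn7, Crb3 and Prkci, against 14.7% of the tested genes, and also in the untested Cldn2 and Cldn6. The AP-1 letters TGANTCA were found in 2 of the 34, F11r and Patj (5.88%, against 6.92%). Neither motif was in the windows of the 4 genes that rose, which says only that these letters are not in these 300 bases. A gene with several windows was counted once if any of them held a match, on either strand.

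The cadherins and catenins, the core of the adherens junction, held no call. Cdh2, N-cadherin, the main cadherin of neural progenitors, read 10.94, 10.91 and 10.95 in control and 11.13, 11.08 and 11.04 in DKO arrays. Its groups did not overlap, but the difference was small, at 0.15 ± 0.06 (SE, adjusted p 0.269). Ctnna1, which encodes alpha-E-catenin, an actin-binding partner of cadherin complexes, read 8.92, 8.96 and 9.06 against 9.23, 9.13 and 9.16. The DKO values lay above all controls, with a difference of 0.19 ± 0.07 (SE, adjusted p 0.217). Cdh4, R-cadherin, read 7.90, 7.99 and 7.94 in control and 7.44, 7.82 and 7.59 in DKO arrays. All DKO values were lower, and DKO 2 lay nearest to the controls. The difference was -0.33 ± 0.10 (SE, adjusted p 0.148), and without DKO 2 it was -0.43 with an adjusted p of 0.0358. A second, dimmer row of Cdh2 differed by 0.21 with groups apart, and a second, dimmer row of Cdh4 by -0.10 with overlapping groups. The 2 rows of the epithelial cadherin gene Cdh1 differed in sign, at -0.09 and 0.16.

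Among the other members of this group Cdh11, a cadherin of mesenchyme that is also made in brain, had the widest spread. It read 9.04, 8.90 and 8.61 in control and 9.67, 9.01 and 9.28 in DKO arrays, so that DKO 2 lay among the controls. Its difference was 0.47 ± 0.17 (SE, adjusted p 0.229). The catenin genes Ctnna2, of neurons, and Ctnnd1, which encodes p120-catenin, differed by -0.04 and 0.03 with overlapping groups. Ctnnd2, which encodes delta-catenin of neurons, differed by -0.19 ± 0.09 (SE, adjusted p 0.347). Over the 12 adherens junction genes the median difference was 0.07, against -0.03 over all tested genes. Of the 12, 2 rose (16.7%), against 1.36% of all tested genes.

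Tjp1 was the 1 member among the tight junction genes that rose. ZO-1 sits under tight junctions of epithelia and vessels and under adherens junctions of neural progenitors. Tjp1 read 8.41, 8.29 and 8.42 in control and 8.99, 8.70 and 8.88 in DKO arrays. All DKO arrays were higher, DKO 2 least so, and the increase was 0.48 ± 0.09 (SE, limma adjusted p 0.0334). Dropping DKO 2 kept the call (adjusted p 0.0132), and dropping any other single array ended it. The adjusted p was then 0.107 (control 1), 0.0987 (control 2), 0.0956 (control 3), 0.107 (DKO 1) and 0.111 (DKO 3). With embryo sex as a covariate it was 0.0556. The difference was 0.46 in female embryos (1 DKO against 2 control) and 0.55 in male embryos (2 DKO against 1 control). Its paralogue Tjp3, which encodes ZO-3 of epithelia, differed by -0.01 ± 0.07 (SE).

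Junctional adhesion molecules and cingulin differed from each other in direction but not past the threshold. Jam2 read 9.28, 9.22 and 9.16 in control and 9.63, 9.56 and 9.45 in DKO arrays. The groups were apart, with a difference of 0.32 ± 0.07 (SE, adjusted p 0.0669). Jam3 differed by 0.08 ± 0.08 (SE), with overlapping groups. F11r, which encodes JAM-A of epithelia and endothelium, read 6.74, 6.52 and 6.58 against 6.36, 6.30 and 6.61. Here DKO 3 lay among the controls, and the difference was -0.19 ± 0.10 (SE, adjusted p 0.390). Cgn, which encodes the tight junction scaffold cingulin, read 6.81, 6.83 and 6.75 against 6.61, 6.69 and 6.33, a difference of -0.25 ± 0.09 (SE, adjusted p 0.245). The 4-span membrane proteins of tight junctions, Ocln (occludin) and Marveld2 (tricellulin), differed by 0.02 and 0.01.

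No claudin of the list passed the test, and their differences went both ways. Claudins are the strand-forming proteins of tight junctions that set which ions and solutes pass between cells. Of 9 members, 7 were tested. At an unadjusted p under 0.05, 1 was higher (14.3%) and 2 were lower (28.6%), against 6.39% and 9.18% of all tested genes. Cldn9 read 6.22, 6.67 and 6.51 in control and 7.48, 7.0 and 6.98 in DKO arrays. Its groups were apart but wide, and the difference of 0.68 ± 0.15 (SE) was the second largest among all members, with an adjusted p of 0.0772. It passed with a trended variance (0.0407), with array weights (0.0438) and with a stricter filter (0.0488). Cldn1 read 5.62, 5.55 and 5.46 against 5.63, 5.85 and 5.65, a difference of 0.16 ± 0.08 (SE, adjusted p 0.375), with control 1 and DKO 1 side by side. Cldn3 read 6.51, 6.26 and 6.17 against 6.08, 6.10 and 6.04, a difference of -0.24 ± 0.09 (SE, adjusted p 0.261). Cldn7, Cldn10 and Cldn11 differed by 0.11, -0.03 and -0.18, each with overlapping groups. The dim Cldn2 and Cldn6 had DKO minus control means of -0.15 and -0.03.

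Cldn5, the main claudin of brain endothelium, was lower in every DKO array. It read 7.37, 7.13 and 7.19 in control and 6.99, 6.66 and 7.004 in DKO arrays, with a difference of -0.34 ± 0.11 (SE, adjusted p 0.178). DKO 2 was the lowest array. Of 10 endothelial markers, 9 had a lower mean in DKO, as did 10064 of all 16724 tested genes. Cdh5, the endothelial cadherin, differed by -0.44 ± 0.14 (SE, adjusted p 0.194) and Pecam1 by -0.17 ± 0.11 (SE). The exception was Mfsd2a, a lipid transporter named after its value was seen, which rose by 0.86 ± 0.09 (SE, limma adjusted p 0.00283). The mean level over the 10 markers was 7.82 to 7.94 in control and 7.49 to 7.90 in DKO arrays. On this level DKO 2 lay below the controls, and DKO 1 and DKO 3 lay within their range. The level includes Mfsd2a, which was higher in every DKO array and so raised the DKO levels. It therefore cannot show where DKO 1 and DKO 3 lay for the other 9 markers, whose mean level was not computed. Of the 10 markers, groups lay apart with DKO below for 2 and with DKO above for 1, and overlapped for 7. The part of these markers in the Cldn5 value was not tested. In bulk tissue, fewer cells of a type and less RNA per cell cannot be told apart.

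In the Crumbs complex, which marks the apical membrane, Crb2 rose and its partners did not pass. Crb2 read 6.99, 7.25 and 7.18 in control and 7.58, 7.56 and 7.86 in DKO arrays. The groups were apart, with DKO 3 highest and control 1 lowest. The increase was 0.53 ± 0.10 (SE) with a limma adjusted p of 0.0473, just inside the threshold. Dropping any single array ended the call. The adjusted p was then 0.159 (control 1), 0.0725 (control 2), 0.134 (control 3), 0.109 (DKO 1), 0.0535 (DKO 2) and 0.109 (DKO 3). The difference was 0.78 in female embryos (1 DKO against 2 control) and 0.32 in male embryos (2 DKO against 1 control). With 1 embryo in a group, these 2 values cannot show whether the sexes differ. With sex as a covariate the limma adjusted p was 0.0876. Crb1, Crb3 and the scaffold gene Patj differed by -0.06, -0.07 and -0.07, and none of the 3 passed. Pals1, the gene of the scaffold between Crumbs and Patj, is listed as Mpp5 on the array and was in the list of other genes described further on.

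None of the 8 genes of the Par complex, which sets the apical domain through the kinase aPKC, passed the limma test. At an unadjusted p under 0.05, 2 were higher (25%) and 0 lower, against 6.39% and 9.18% of all tested genes. Of the 8, 7 (87.5%) differed by less than 0.2, close to the 86.0% of all tested genes. Prkci, which encodes the aPKC iota kinase, read 8.92, 8.96 and 8.93 in control and 9.17, 9.08 and 9.18 in DKO arrays. All DKO arrays were higher, by 0.20 ± 0.06 (SE, adjusted p 0.159). Pard6g, a Par6 adaptor that binds aPKC and Cdc42, read 8.30, 8.44 and 8.45 against 8.66, 8.48 and 8.65, a difference of 0.20 ± 0.08 (SE, adjusted p 0.260). Control 3 and DKO 2 almost met. Cdc42, the small GTPase of the complex, read 12.06 to 12.11 in control and 12.07 to 12.14 in DKO arrays, with a difference of 0.02 ± 0.06 (SE). A second row of Cdc42, dim at a mean of 4.78, differed by 0.28 with groups apart. The scaffold genes Pard3 and Pard3b, the adaptor genes Pard6a and Pard6b and the kinase gene Prkcz differed by -0.09, 0.02, 0.09, -0.02 and 0.02.

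The basolateral Scribble group and the Numb genes held no call either. None of the 5 Scribble group genes passed the limma test. At an unadjusted p under 0.05, 1 was lower (20%, against 9.18% of all tested genes). That gene was Dlg5, a scaffold of the Dlg family, which read 8.41, 8.43 and 8.47 in control and 8.30, 8.26 and 8.26 in DKO arrays. The spread within each group was small, the groups were apart, and the difference was -0.16 ± 0.06 (SE, adjusted p 0.230). Llgl1, which encodes a lethal giant larvae protein that opposes aPKC, differed by -0.11 ± 0.06 (SE, adjusted p 0.432), with all DKO values below all controls. Llgl2, Scrib and Dlg1 differed by 0.10, -0.03 and -0.05, with overlapping groups. Numb and Numbl encode Notch inhibitors that also help keep progenitor adherens junctions. They differed by -0.07 ± 0.08 (SE) and 0.08 ± 0.07 (SE), and neither passed.

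Differences between paralogues within each array show whether members of a family changed unequally. Nectin1 minus Nectin2 was 0.69 ± 0.09 (SD, n = 3) in control and -0.38 ± 0.23 (SD, n = 3) in DKO arrays, a shift of -1.07. Nectin1 minus Nectin3 shifted by -0.77, and Nectin2 minus Nectin3 by 0.30. Crb1 minus Crb2 went from -1.06 ± 0.11 (SD, n = 3) to -1.65 ± 0.09 (SD, n = 3). The shift was 0.49 for Tjp1 minus Tjp3, 0.23 for Ctnna1 minus Ctnna2 and 0.24 for Jam2 minus Jam3. In each of these pairs all DKO arrays lay on 1 side of all control arrays. Groups also lay apart for Llgl1 minus Llgl2, Numb minus Numbl, Pard6b minus Pard6g and Cdh1 minus Cdh2, with shifts of -0.21, -0.15, -0.22 and -0.24. In all, groups lay apart in 11 of 16 pairs, and the share over other gene pairs was not computed. Of the 11, 5 hold a gene that had risen. The others hold a gene whose own groups lay apart: Ctnna1, Jam2, Llgl1, Numbl, Pard6g or Cdh2. All 11 thus restate changes of single genes in part. Among single genes, groups lay apart for 8.22% (DKO above) and 13.4% (DKO below) of all tested genes. Groups overlapped for the catenin pair Ctnnd1 and Ctnnd2, the kinase pair Prkci and Prkcz, Pard3 and Pard3b, and the 2 pairs with Pard6a. These are values of 3 arrays against 3 and were not tested. Since each gene has its own probes, only the shift can be read, not which paralogue is more abundant.

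**Figure D3:**
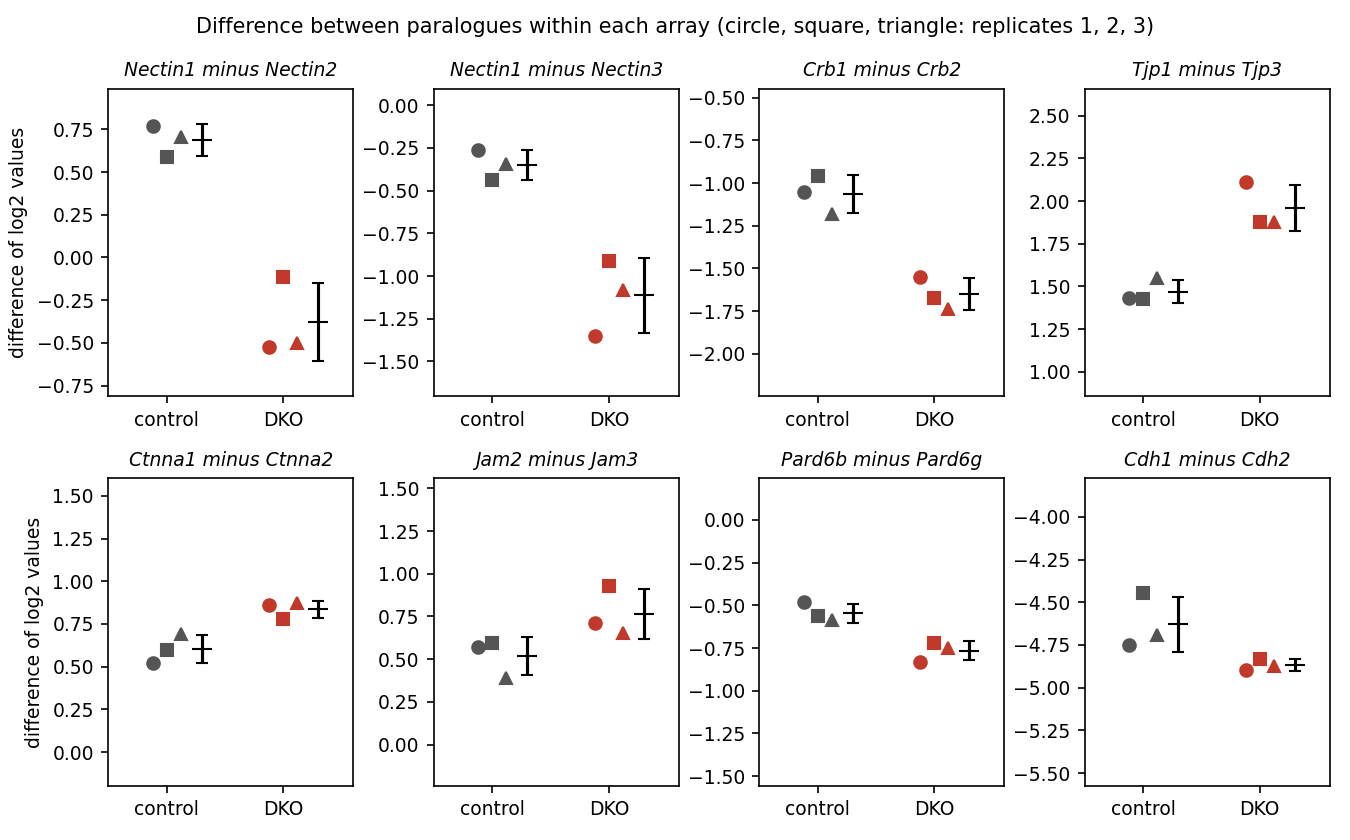
Log2 value of 1 paralogue minus that of the other in each array (vertical axis, the same span of 1.8 in every panel), control in grey, DKO in red, replicate number as the symbol and mean ± SD in black. The largest shifts are those of Nectin1 minus Nectin2, from 0.69 to -0.38, and of Nectin1 minus Nectin3.

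Other genes of these junctions and complexes were read from a list of 75, of which 71 had a row and 62 were tested. Of these 62, 3 rose and 0 fell, with 10 higher (16.1%) and 3 lower (4.84%) at an unadjusted p under 0.05, against the same 6.39% and 9.18% of all tested genes. The share that rose was 4.84%, against the same 1.36% of all tested genes, and the median difference was -0.03. Cldn12, a claudin, went from 7.58 ± 0.07 (SD, n = 3) to 9.32 ± 0.25 (SD, n = 3), an increase of 1.75 ± 0.12 (SE, limma adjusted p 2.76e-04). Cdh6, a cadherin of regional borders in the forebrain, rose by 0.79 ± 0.06 (SE, adjusted p 5.14e-04). Shroom3, an actin-binding protein that drives apical constriction at the adherens junction, rose by 0.73 ± 0.08 (SE, adjusted p 0.0023). All 3 still passed when any single array was dropped.

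Of the 62 tested genes of that list, 46 (74.2%) differed by less than 0.2, against 86.0% of all tested genes. Mpp5 (Pals1) went from 7.16 ± 0.13 (SD, n = 3) to 7.73 ± 0.22 (SD, n = 3), a difference of 0.56 ± 0.12 (SE) with an adjusted p of 0.0549. It passed in 8 of 16 other settings, among them embryo sex as a covariate (adjusted p 0.0105). Numa1, which encodes a spindle-orienting protein at the cell cortex, differed by -0.20 ± 0.06 (SE, adjusted p 0.143). Ybx3 and Sympk, which encode proteins of both junctions and nucleus, differed by 0.17 ± 0.06 (SE) and -0.13 ± 0.07 (SE), and neither passed. By sublist, 1 of 8 other claudins, 0 of 11 other tight junction genes, 2 of 19 other adherens junction genes and 0 of 24 other polarity genes rose. The share of all tested genes that rose was 1.36%. For the 2 lists at 0, 1 gene each was higher at an unadjusted p under 0.05, and 0 and 1 were lower. Of all tested genes, 6.39% were higher and 9.18% lower at that limit. Ctnnb1, beta-catenin, named after its value was seen, differed by 0.003 ± 0.06 (SE).

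**Figure D4:**
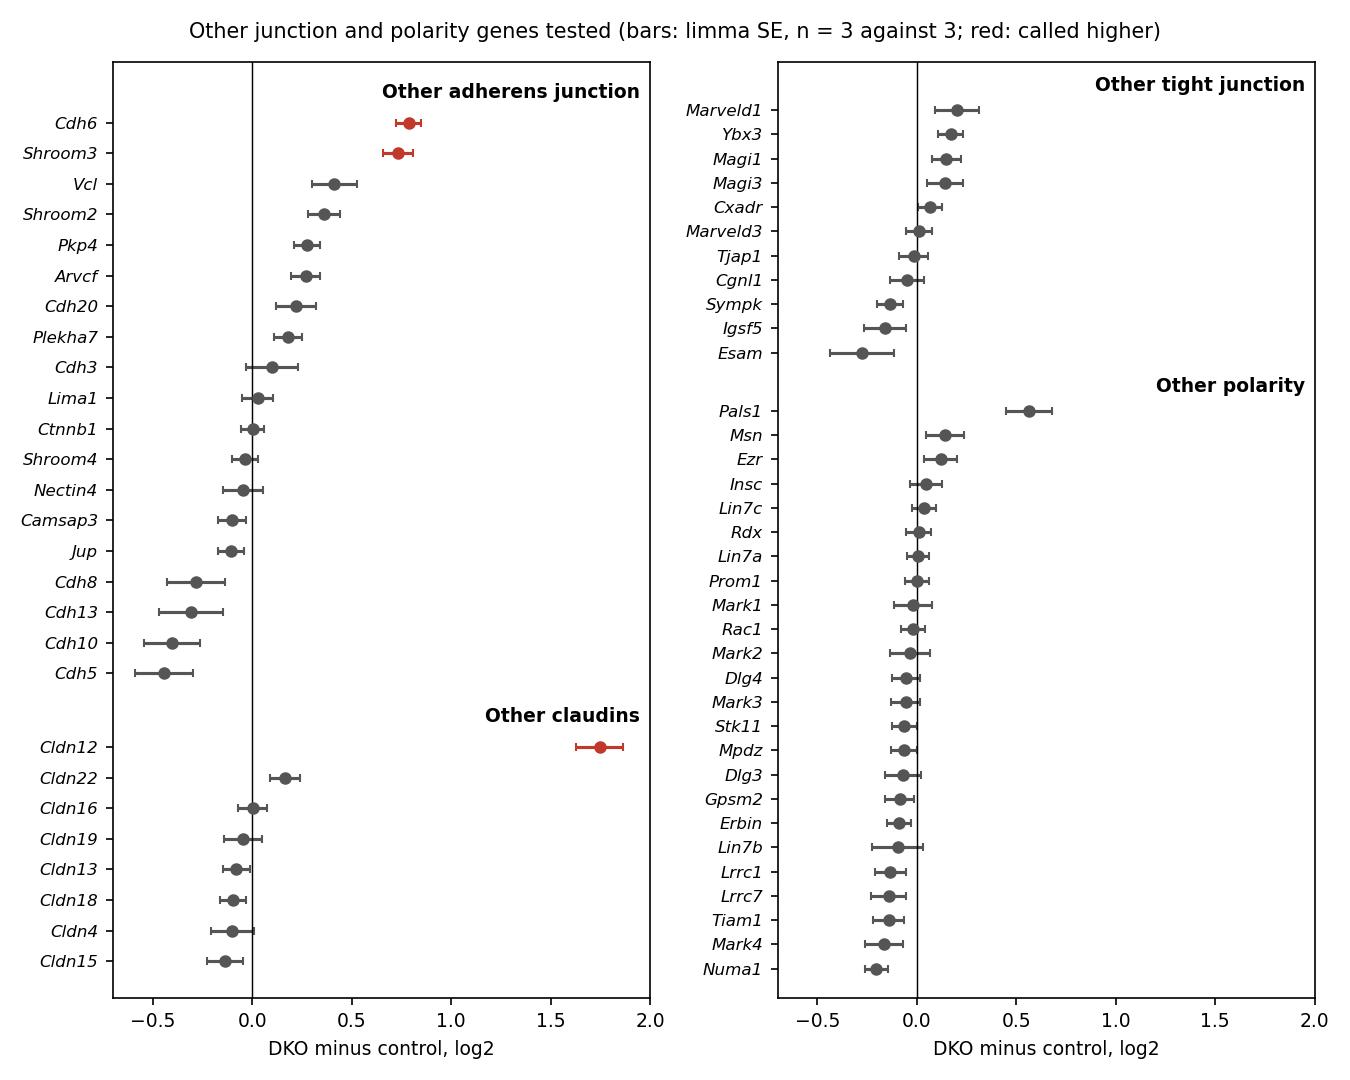
DKO minus control difference on the log2 scale (horizontal axis) of the 62 other junction and polarity genes tested, with limma SE bars (3 embryos against 3), by group. Cldn12, Cdh6 and Shroom3, in red, are the 3 that rose, at 1.75, 0.79 and 0.73.

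Markers of cell types differed between DKO and control cortex in directions that varied by list. Of 10 tested hem and choroid plexus markers 9 had higher means in DKO, with Ttr, the thyroid hormone carrier of choroid plexus, at 2.24 ± 0.41 (SE, limma adjusted p 0.0371) and the roof plate factor gene Lmx1a at 0.47 ± 0.06 (SE, adjusted p 0.00982). When single arrays were dropped, Ttr passed in 2 of 6 fits (highest adjusted p 0.140) and Lmx1a in 3 of 6 (highest 0.0581). Groups lay apart, with DKO above, for 5 of the 10 (50%, against 8.22% of all tested genes), and overlapped for the other 5. The mean level over the list was 5.64 to 5.85 in control and 5.998 to 6.35 in DKO arrays. Its largest differences were those of Ttr and of Otx2, at 1.03 ± 0.33 (SE, limma adjusted p 0.191). Kl had the 1 lower mean among those tested, at -0.15. Otx2 and Kl were named after their values were seen. All 6 intermediate progenitor genes and all 7 neuron genes had lower means in DKO. Over all 16724 tested genes, 6660 had a higher and 10064 a lower mean in DKO. Eomes differed by -0.44 ± 0.11 (SE), Neurog1 by -0.56 ± 0.12 (SE), Tubb3 by -0.18 ± 0.06 (SE) and Dcx by -0.19 ± 0.06 (SE), and none of these 4 passed. Btg2, at -0.41 ± 0.08 (SE), and Hes6, at -0.33 ± 0.06 (SE), of the intermediate progenitor list and named after their values were seen, fell (limma) but lost the call whichever array was dropped (highest adjusted p 0.148 and 0.135). The mean level of the neuron list was 9.98 to 10.15 in control and 9.73 to 9.89 in DKO arrays, and that of the intermediate progenitor list 8.61 to 8.79 and 8.14 to 8.39. The mean level of the 8 apical progenitor genes was 10.22 to 10.24 and 10.18 to 10.22, but its members moved both ways. Sox2 differed by 0.07 and Pax6 by -0.07, with overlapping groups. The others named here were chosen after their values were seen. Vim, Nes and Hes1 were higher in every DKO array, by 0.32 ± 0.07, 0.24 ± 0.06 and 0.37 ± 0.10 (SE), and Emx2 was lower in every DKO array, at -0.18 ± 0.06 (SE), and none of these 4 passed. Hes5, a Notch target, fell by 0.90 ± 0.09 (SE, limma adjusted p 0.00197) and kept its call whichever array was dropped. Both tested dorsal telencephalon genes were lower in every DKO array, Emx1 at -0.30 ± 0.07 (SE, adjusted p 0.0994) and Lhx2 at -0.17 ± 0.06 (SE, adjusted p 0.244). The part of these markers in the increases of Nectin2, Nectin3, Crb2 and Tjp1 was not tested.

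Epithelial and meningeal markers did not move in 1 direction. Epcam, a marker of surface epithelium, was dim in all arrays, at 4.60 ± 0.01 (SD, n = 3) in control and 4.56 ± 0.05 (SD, n = 3) in DKO. Of the 7 epithelial markers tested 3 had higher and 4 lower means, with list levels of 5.45 to 5.62 in control and 5.47 to 5.59 in DKO arrays. Of 9 meningeal markers 3 were higher and 6 lower, with levels of 7.43 to 7.75 and 7.03 to 7.83. Over all 16724 tested genes, 6660 had a higher and 10064 a lower mean in DKO. Foxc1 differed by -0.20 ± 0.20 (SE) and Col1a1 by 0.15 ± 0.40 (SE). None of the epithelial or meningeal markers passed the limma test. At an unadjusted p under 0.05, 1 epithelial and 0 meningeal markers were higher, and 0 and 1 were lower. The shares of all tested genes were 6.39% higher and 9.18% lower. Cldn1, Cldn2 and Cldn3, which are among the claudins made by choroid plexus epithelium, had the differences of 0.16, -0.15 and -0.24 given above. Of these Cldn2 was too dim to be tested. These 3 are not a full list of the claudins of that tissue, and Cldn9 differed by 0.68.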

How the data were processed

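RNA of 6 embryonic cortices was hybridised to whole-transcript arrays. The deposited log2 values were made by the authors with RMA (background correction, quantile normalization, summary of probes) per the submitters' processing notes, with no version given. Such values cannot show whether total RNA per cell changed. Of 41345 rows, 23521 had 1 gene symbol in the platform annotation; the brightest row of each gene was used, and genes below the 25th percentile of row means were left out. DKO and control were compared across all genes with limma 3.58.1 in R 4.3.3 (lmFit, eBayes, 4 residual degrees of freedom), with no covariate. Scripts were tested on simulated data. Named genes are all members (with every array for calls and the 4 smallest p of each group), the targeted genes, calls or the 2 smallest p among other junction genes, and the first 2 genes of each marker list. Members, lists and settings were chosen with earlier results of these data known, so no list is independent evidence. Alternatives covered filters, variance priors, scaling, rows, weights, the replicate number, each array left out and, added after seeing the data, embryo sex.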

Additional observations from a re-analysis of the deposited data

How the results depend on the processing

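Nectin2 and Nectin3 were called under each of the 16 alternatives, with log2 differences from 0.82 to 0.98 and from 0.52 to 0.65. Leaving out 1 array gave 2 to 3 members called higher and 0 to 1 lower, against 4 and 0 with all arrays, and 135 to 315 calls over all genes against 288. The other junction genes called higher numbered 3 to 6 in these fits. A trended variance gave 485 calls over all genes and 5 other junction genes, array weights 5 and a stricter filter 6. With embryo sex as a covariate, chosen after the data were seen, 189 genes and 2 members were called. Crb2 also lost its call with no filter (adjusted p 0.0624) and with repeated quantile normalization (0.0510). Jam2 passed with a stricter filter (0.0371) and a trended variance (0.0202). With the replicate block 200 genes and 3 members were called, and Crb2 lost its call (0.0651). Same-numbered embryos deviated together with correlations of -0.10, 0.21 and 0.15, and control 1 correlated best with DKO 3, so the numbers were not read as pairs. Cldn2 and Cldn6, below the limit on mean level, had adjusted p of 0.398 and 0.925 with no filter, and no member with a difference under 0.32 was called in any setting.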
